A study of Bos taurus with 6 samples.

Results

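The regions described here hold the T-box genes TBX2, TBX3, TBX4, TBX5, TBX15, TBX18 and TBX20 with 100 kb of DNA on either side of each, measured by MIRA-Seq in bovine dermal fibroblasts. Of the 902984 windows of 3 kb in the deposited tables, 495 were taken. These were the 95 windows labelled with a T-box gene and every window within the flanks. They form 5 regions, because TBX3 and TBX5 lie side by side on chromosome 17 and TBX2 and TBX4 on chromosome 19, while TBX15, TBX20 and TBX18 lie alone on chromosomes 3, 4 and 9. TBX1 was an 8th gene of the list, but no window carries its label and it could not be placed. The family was chosen by the difference in read counts between the ages, because 2 unlabelled windows near TBX3 had shown some of the largest gains of signal at 16 months in these same libraries. All differences by age below are therefore descriptions, and nothing is read from them about the family as a whole.

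T-box genes encode transcription factors that share a DNA-binding domain and set the identity of organs and limbs in the embryo. Some, such as TBX2 and TBX3, mainly repress their targets, and others, such as TBX5 and TBX20, can activate them. TBX2 with TBX4 and TBX3 with TBX5 are neighbouring pairs that arose from the duplication of an ancestral pair. Fibroblasts of the adult skin keep part of the positional programme of the body site they come from, and T-box genes belong to the genes known to differ between sites. Their starts lie in DNA rich in CpG sites, which is often free of methylation at active genes and at developmental genes held silent by Polycomb proteins.

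The cultures were from 3 Holstein heifers, each biopsied at the ages of 5 and 16 months, and each age of an animal is represented by 1 library (n = 3 per age). The study had picked these animals for a middling IL-8 response to LPS among a larger set of heifers. All 6 cultures were at passage 5 and none had received any treatment. The windows hold reads of DNA and no expression, so the fibroblast label could not be checked against marker genes. In MIRA, methyl-CpG-binding proteins enrich methylated fragments before sequencing, and the signal of a window rises with both its methylation and the number of its CpG sites. A culture holds many cells, so a larger share of methylated cells and a change in cell makeup cannot be told apart.

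Counted reads per library ranged from 19.9 to 43.6 M. Signal is given as reads or as counts per M (CPM), taken over the reads in the windows tested and scaled with TMM factors, a correction for the makeup of the libraries. These factors were 0.718 and 0.850 in both libraries of animal 3 and 1.03 to 1.22 in the other 4. A window was tested when 3 or more of the 6 libraries reached 1 CPM over all counted reads without TMM factors, a scale on which some values are lower than those printed here. This left 66 of the 495 T-box windows (13.3%) and 11.6% of all windows. The tested T-box windows had a median of 60 reads per library and the others a median of 5 reads, so most of the DNA around these genes was too sparsely covered to be compared. A difference by age was called when the false discovery rate (FDR) was under 0.1 and the change at least 2-fold, in edgeR's quasi-likelihood test with the animal as a block. Log2 differences are positive where signal was higher at 16 months.

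The strongest pattern by age lay at TBX3, a repressor known from limb, mammary gland and heart conduction tissue and for holding back senescence genes. TBX3 spans 6 labelled windows on chromosome 17 from 62349994 to 62367993 (UMD v3.1), on the plus strand. The 2 windows behind the choice of the family adjoin it directly, with 1 just upstream of its first window and 1 just downstream of its last. The files print no gene beside either.

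The upstream window, from 62346994 to 62349993, held 19, 18 and 10 reads for animals 1, 2 and 3 at 5 months. At 16 months the same animals had 135, 61 and 74 reads. On the CPM scale this was 0.634 ± 0.223 at 5 months against 3.33 ± 0.381 at 16 months (SD, n = 3). Every 16-month library lay above every 5-month library. The log2 difference was 2.39 (SE 0.33; edgeR quasi-likelihood test, FDR 3.5e-07), a 5.25-fold higher signal at 16 months. The single animals differed by 1.44, 1.68 and 2.19 on the log2(CPM + 0.5) scale.

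The downstream window, from 62367994 to 62370993, held 18, 14 and 15 reads at 5 months and 168, 105 and 62 at 16 months. It stood at 0.647 ± 0.182 CPM against 4.12 ± 1.03 CPM (SD, n = 3), again with no overlap between the ages. The log2 difference was 2.67 (SE 0.30; edgeR quasi-likelihood test, FDR 2.83e-11), or 6.38-fold. The animals differed by 1.76, 2.56 and 1.67 on the log2(CPM + 0.5) scale. In neither window did the reads stack at a single position, since the deepest base held at most 22 reads in any library, and the highest depths summed over the libraries came to 0.218 and 0.141 of the reads, against a median of 0.218 over the tested T-box windows. Both windows passed the filter of 1 CPM through the 16-month libraries alone, as no 5-month library reached it. Their FDRs are therefore descriptions, and nothing is read from them. Both were called under 10 of 12 other settings. Without the animal as a block they were not called (FDR 1 and 0.603), with unadjusted p-values of 5.00e-05 and 1.09e-05 in edgeR's quasi-likelihood test. No window of the genome was called in that fit, where 1282 of 104658 had an unadjusted p under 0.05.

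**Figure D1:**
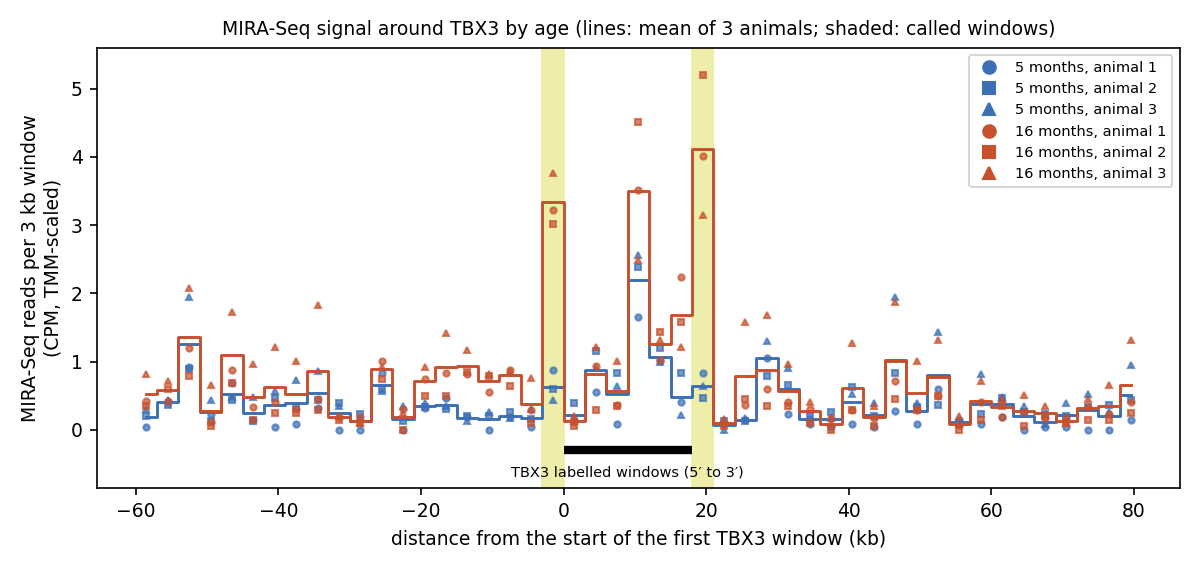
MIRA-Seq signal (CPM per 3 kb window) against distance in kb from the start of the first TBX3 window, with lines for the mean of 3 animals per age, points for single libraries and shading for the called windows. The shaded windows rise from 0.634 to 3.33 CPM upstream of TBX3 and from 0.647 to 4.12 CPM downstream of it, while the first TBX3 window stays low at both ages.

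Between these flanking windows the gene itself was uneven. The first TBX3 window, which holds its start, was nearly empty at both ages, with 3, 12 and 3 reads at 5 months and 5, 1 and 4 at 16 months. The fourth window, from 62358994 to 62361993, had the most signal within the gene, with 36, 72 and 59 reads at 5 months and 147, 91 and 49 at 16 months. Its log2 difference of 0.67 (SE 0.25; edgeR quasi-likelihood test, FDR 0.386) was not called, and animal 3 had similar CPM at both ages. The fifth window had a log2 difference of 0.23, which was not called either.

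The last TBX3 window, from 62364994 to 62367993, which has no coding entry in the files, had 9, 25 and 5 reads at 5 months and 94, 32 and 24 at 16 months. This was 0.486 ± 0.312 CPM against 1.68 ± 0.519 CPM (SD, n = 3), with all 16-month libraries above all 5-month libraries. It missed the filter of 1 CPM, which used unscaled CPM over all counted reads. With the filter lowered to 0.5 CPM it was called as well, with a log2 difference of 1.83 (SE 0.42; edgeR quasi-likelihood test, FDR 0.0426). It passed that filter through the 16-month libraries, which alone are enough for it, so nothing is read from this call.

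**Figure D2:**
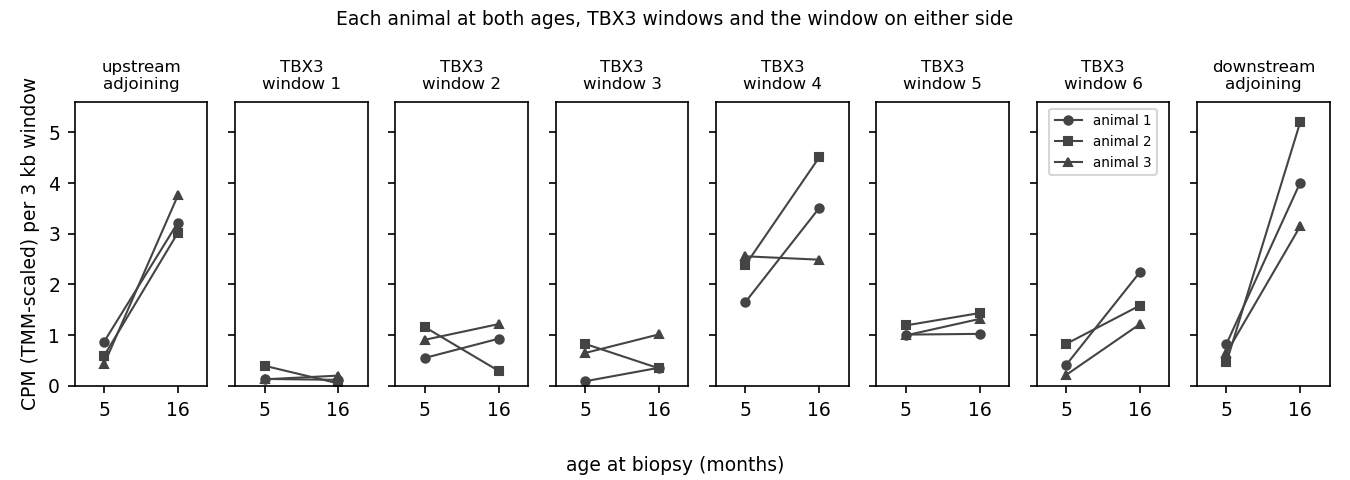
CPM per window for each animal at 5 and 16 months in the upstream adjoining window, the 6 TBX3 windows in gene order and the downstream adjoining window. All 3 animals are higher at 16 months in the upstream, last and downstream windows, and the first window stays at or under 0.398 CPM in every library.

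Further upstream of TBX3, 4 consecutive windows from 62331994 to 62343993 also had every 16-month library above every 5-month library, at 0 to 0.460 CPM at 5 months and 0.495 to 1.42 CPM at 16 months. One of them, from 62334994 to 62337993, held 4, 6 and 3 reads at 5 months and 34, 17 and 23 at 16 months. At the filter of 0.5 CPM its log2 difference of 2.38 was not called (edgeR quasi-likelihood test, FDR 0.584). Such windows can pass a filter through the 16-month group alone, so their counts are given without support from them. The window between this stretch and the called upstream window, from 62343994, overlapped between the ages, with 1, 5 and 7 reads against 12, 2 and 15. On the downstream side the next window, from 62370994, held 0 to 4 reads in every library.

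The signal of the gene was also set beside that of the adjoining windows, which the choice of the family fixed as higher at 16 months. Summed over TBX3 and both adjoining windows, signal was 6.65 ± 1.15 CPM at 5 months and 15.4 ± 1.04 CPM at 16 months (SD, n = 3). The adjoining windows held 13.5 to 30.6% of this sum at 5 months (20.2% ± 9.11) and 46.9 to 50% at 16 months (48.3% ± 1.56, SD, n = 3). The 6 labelled windows alone went from 5.37 ± 1.47 to 7.96 ± 0.427 CPM.

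On chromosome 17 the flank limit cut through DNA of low signal, and the limits of the other regions were not looked at in this way. Left of TBX3, the last window inside the limit had 0.423 ± 0.248 CPM and the first outside 0.302 ± 0.168 CPM (SD, n = 6). To the right of TBX5, at the other end of this region, the values were 0.515 ± 0.362 CPM inside and 0.546 ± 0.323 CPM outside.

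Over all T-box windows tested, the 2 windows at TBX3 were the only ones called by age in edgeR's quasi-likelihood test. This was 3.03% of the 66, against 0.185% of all 104658 windows tested, of which 0.0803% were higher at 16 months and 0.105% lower. None was called lower. At an unadjusted p under 0.05 there were 9 of the 66 T-box windows, against 7.1% of all windows. Without the 2 windows at TBX3 that led to the choice there were 7 of 64. In the other 64 windows the log2 difference ranged from -0.71 to 0.71, the lowest FDR was 0.246, and 37 were higher at 16 months. The median log2 difference of the T-box windows was 0.04, and -0.02 over all windows tested, of which 47.4% were above 0.

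Gene starts, taken as the first labelled window and the window upstream of it, were higher at 16 months in 6 of 6 tested windows, with a median log2 difference of 0.36. Only the TBX3 window among them was called, and the choice of the family had fixed its direction. The other labelled windows, the gene bodies, were higher in 15 of 18, with a median of 0.20, and none was called. The flanks were higher in 18 of 42, with a median of -0.03. Over all windows tested 47.4% were higher, and the shares among other gene starts and bodies were not counted. Under other scalings 6 of 6 starts and 14 or 15 of the 18 bodies kept a positive difference, and without animal 2 the starts fell to 5 of 6. The bodies fell to 13 of 18 at the filter of 0.5 CPM and without animal 3.

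At 1 CPM, 3 T-box windows had all 16-month libraries above all 5-month libraries (4.55%, against 2.85% of all windows tested) and 0 had them all below (2.43% of all windows). At 0.5 CPM, 136 T-box windows passed, and 9 of these were above (6.62%, against 2.25%) and 2 below (1.47%, against 1.87%). Both windows that led to the choice of the family are among the 3 and among the 9. A window of this kind can also pass either filter through the age where it is high alone, so nothing is read from these shares. Of the 9 windows above, 8 lay on chromosome 17 between 62301994 and 62370993, around TBX3. The other was a TBX5 window, from 62550994 to 62553993, at 1.37 ± 0.251 against 1.84 ± 0.129 CPM. The 2 windows below were in the flank upstream of TBX20.

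**Figure D3:**
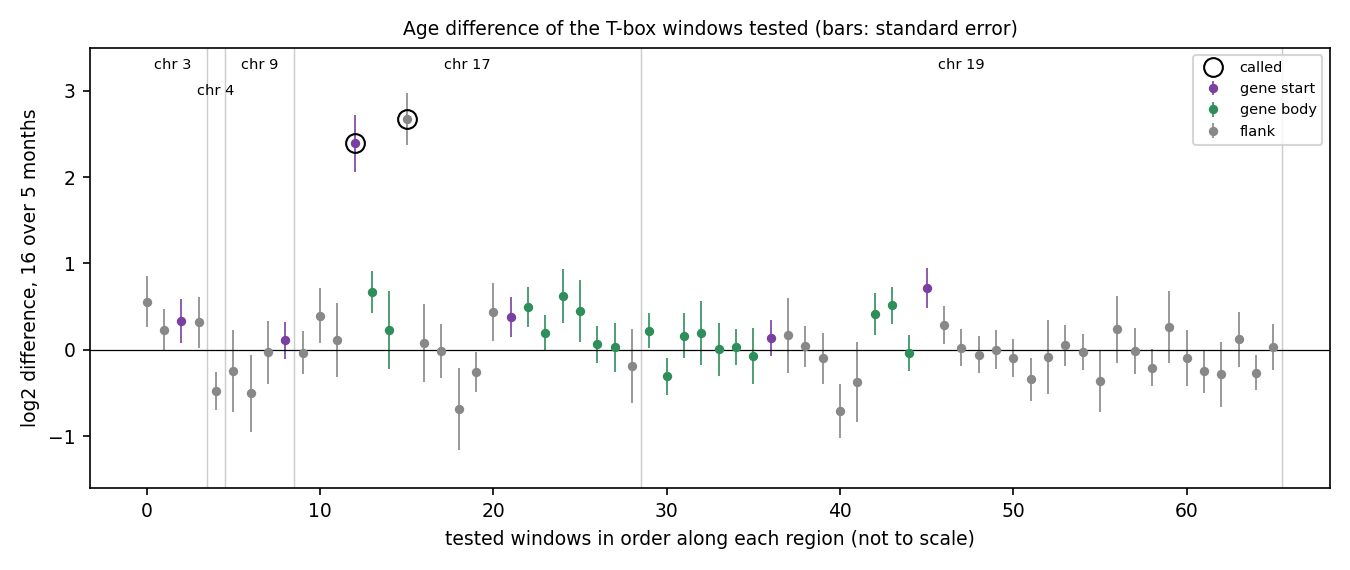
Log2 difference, 16 over 5 months, of the 66 T-box windows tested, in order along each region, with bars for the standard error and colours for gene starts, gene bodies and flanks. The 2 circled windows at TBX3 lie at 2.39 and 2.67, and the other 64 lie between -0.71 and 0.71.

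TBX5, the forelimb and heart gene next to TBX3, had 6 tested windows among its 18, and all 6 had positive log2 differences, from 0.03 to 0.62. None was called. The lowest p was in its second window, from 62532994 to 62535993, where 54, 96 and 61 reads at 5 months stood against 147, 130 and 46 at 16 months (log2 difference 0.50, SE 0.23; edgeR quasi-likelihood test, FDR 0.628). Here animal 2 was high at 16 months and animal 3 was level. The strongest TBX5 window, from 62535994 to 62538993, had 4.65 ± 0.285 CPM at 5 months and 5.33 ± 0.687 at 16 months (SD, n = 3), which overlap.

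TBX2, a repressor of the heart and limb that, like TBX3, holds back senescence genes, lies on the minus strand of chromosome 19 from 11942275 to 11954274. The unlabelled window upstream of it, from 11954275 to 11957274, had the lowest p of the T-box windows not called, with 41, 88 and 87 reads at 5 months and 196, 138 and 52 at 16 months. Animals 1 and 2 were higher at 16 months and animal 3 was lower. The log2 difference was 0.71 (SE 0.23; edgeR quasi-likelihood test, FDR 0.246). The neighbouring BCAS3 window, from 11957275, had the highest signal of all T-box windows, at 8.57 ± 1.96 CPM at 5 months and 10.9 ± 4.47 at 16 months (SD, n = 3), with a log2 difference of 0.29 (FDR 0.915).

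TBX4, a gene of hindlimb and lung development, lies on the same strand from 11864275 to 11894274 and had 8 of its 10 windows tested, more than any other member. Their log2 differences ran from -0.31 to 0.22, and 6 of 8 were positive. Its first window, from 11891275 to 11894274, held 99, 117 and 67 reads at 5 months and 196, 84 and 70 at 16 months, or 3.78 ± 0.829 against 4.13 ± 0.562 CPM (SD, n = 3). The ages overlapped in every tested window of TBX4.

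The other 3 genes had no labelled window that passed the filter, and their tested windows were in the flanks or just upstream of the gene. For TBX15, a gene of skeleton and skin patterning, the strongest window lay upstream, from 24221910 to 24224909 on chromosome 3, where reads were 75, 68 and 59 at 5 months and 116, 65 and 74 at 16 months (log2 difference 0.23, SE 0.24; edgeR quasi-likelihood test, FDR 0.958). The lowest p was in a window labelled WARS2, from 24197910, with 22, 86 and 33 reads against 109, 52 and 42 (log2 difference 0.55, SE 0.29; FDR 0.739). Neither separated the ages.

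TBX18, known from the sinus node, the epicardium and the ureter, had the highest upstream window of all members, on chromosome 9 from 65575551 to 65578550, where reads were 168, 216 and 144 at 5 months and 354, 186 and 107 at 16 months. This was 7.04 ± 0.750 against 7.70 ± 2.00 CPM (SD, n = 3), a log2 difference of 0.11 (SE 0.21; edgeR quasi-likelihood test, FDR 0.994). The lowest p of its region was in the window from 65557551, at a log2 difference of -0.51 (SE 0.45, FDR 0.937). For TBX20, a heart gene, the single tested window of the region lay upstream, from 62192305 to 62195304 on chromosome 4. It held 85, 151 and 71 reads at 5 months and 111, 71 and 48 at 16 months, with a log2 difference of -0.48 (SE 0.22; edgeR quasi-likelihood test, FDR 0.641).

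With the labelled windows summed per gene, no T-box gene was called by age, and of 18025 genes tested 2 were (0.0111%). TBX3 had the largest difference, with 84, 205 and 126 reads at 5 months and 343, 166 and 147 at 16 months, and a log2 difference of 0.56 (SE 0.33; edgeR quasi-likelihood test, FDR 1). The other 6 lay between -0.41 for TBX20 and 0.25 for TBX2, each with an FDR of 1. The sums for TBX3 leave out both adjoining windows, which carry no label.

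The animals were compared in the same fit, which the choice of the family had not used. Of the 66 T-box windows tested, 13 differed between the 3 animals at an FDR under 0.1 (19.7%), against 31.6% of all windows tested. Of these, 12 were in flanks, 8 of them labelled BCAS3, and 1 was a gene body window. None was at a gene start. The called windows at TBX3 had FDRs of 0.873 and 0.701 between animals in edgeR's quasi-likelihood test, so no difference between animals was detected there.

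The body window was the second window of TBX5, with 3.00, 4.81 and 2.49 CPM in animals 1, 2 and 3 as means of both ages (edgeR quasi-likelihood test, FDR 0.0302). The lowest FDR, 0.000535, was in the TBX3 flank from 62274994 on chromosome 17, where animals 1 and 2 had 1.37 and 1.03 CPM and animal 3 had 3.43 CPM. In BCAS3, animal 3 was lowest in 4 of the 8 windows and highest in 3. The strongest BCAS3 window had 10.6, 12.4 and 6.18 CPM in animals 1, 2 and 3. Animal 3 also had the TMM factors furthest from 1, and the part of the scaling in these counts was not separated from that of the animals. With library size only, 29 of the 66 T-box windows and 48687 of all 104658 windows differed between animals. Without animal 3 the counts were 0 and 3023.

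The genes differed strongly in their level. As CPM per labelled window of 3 kb over the 6 libraries, TBX2 had 4.13 ± 0.873, TBX4 3.13 ± 0.291, TBX5 1.37 ± 0.193 and TBX3 1.11 ± 0.286 (SD, n = 6). Far below these lay TBX18 at 0.312 ± 0.121, TBX15 at 0.272 ± 0.148 and TBX20 at 0.160 ± 0.0651. Among 26209 labelled genes, whose median was 0.475 CPM, TBX2 was at percentile 89.3 and TBX4 at 85.3, and TBX15 and TBX20 were at 35.5 and 20.6. The neighbouring pairs thus stood above the genome median and the genes that lie alone below it.

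In the order of levels, TBX4 lay above TBX5 and TBX3 above TBX18 in 6 of 6 libraries, with exact two-sided sign-flip p = 0.0312, the smallest that 6 libraries allow. After Benjamini-Hochberg adjustment over the 6 neighbours, 5 had an adjusted p of 0.075 and TBX18 against TBX15 had 0.656. The lowest p of this test limits these values. The order was taken from the same libraries, so the neighbours and their directions were set by the values tested. These p-values are therefore descriptions. The libraries also come from only 3 animals, over which the smallest p of the sign-flip test is 0.25. The libraries of TBX4 (2.70 to 3.48 CPM) did not overlap those of TBX5 (1.03 to 1.57), nor did those of TBX3 (0.644 to 1.37) overlap those of TBX18 (0.182 to 0.452).

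**Figure D4:**
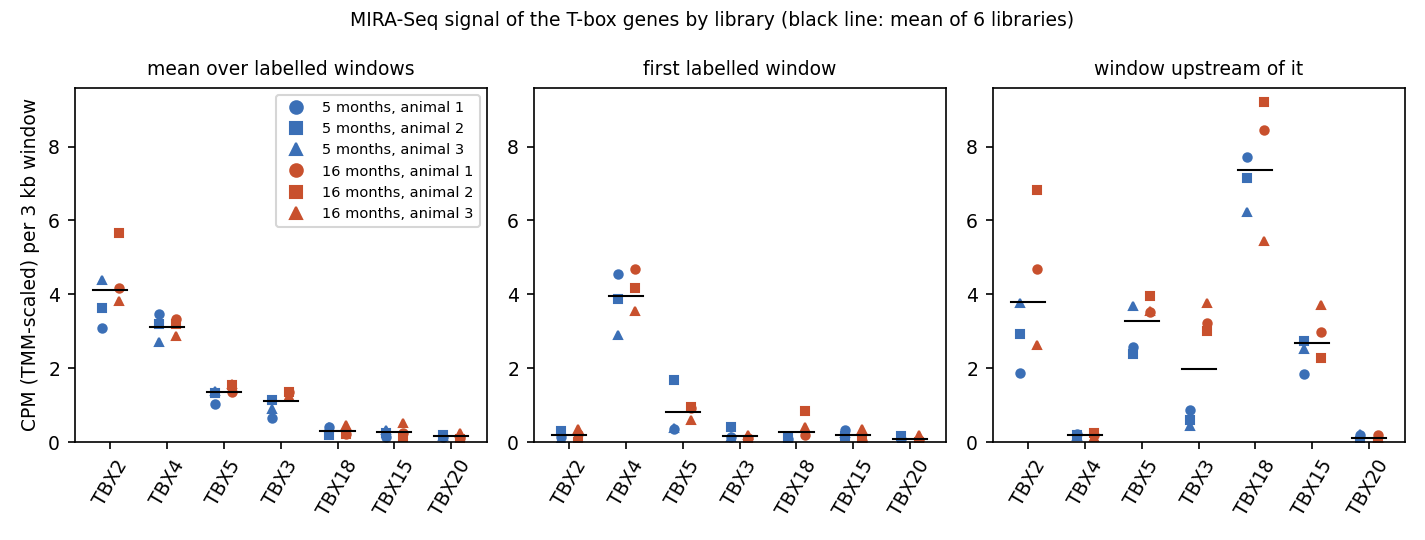
CPM per 3 kb window of each T-box gene in each library, as the mean over its labelled windows, in its first labelled window and in the window upstream of it, with black lines for the mean of 6 libraries. The first window averages 3.95 CPM in TBX4 and at most 0.821 CPM in the other genes. The upstream window averages 1.98 CPM or more in all genes but TBX4 and TBX20. For TBX3 it averages 0.634 CPM at 5 months and 3.33 CPM at 16 months.

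The position of the signal at the gene start was shared by most members. The window upstream of the first labelled window held 2.77 ± 0.594 CPM on average over the 7 genes and the first window 0.815 ± 0.137 CPM (SD, n = 6 libraries), a ratio of 3.40, with the upstream window higher in 6 of 6 libraries and in 6 of 7 genes. TBX18 had 7.37 CPM upstream against 0.286 CPM in its first window, TBX2 3.79 against 0.182, TBX15 2.68 against 0.196 and TBX5 3.28 against 0.821, in an upstream window that is labelled LOC100297608. TBX4 was the reverse, with 0.199 CPM upstream and 3.95 in its first window, and TBX20 was low in both, at 0.121 and 0.0920 CPM. The TBX20 windows held 0 to 8 and 0 to 5 reads per library, so its place among the 6 genes rests on few reads. TBX3 is among them through the upstream window that led to the choice of the family. Without that window the upstream mean was 2.91 ± 0.526 CPM (SD, n = 6 libraries). Over 26106 other genes the upstream window was lower than the first, at 0.945 ± 0.0871 against 1.23 ± 0.0606 CPM, in 6 of 6 libraries. This contrast was noticed after the values were seen, and its difference from the other genes was not tested.

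At TBX3 this contrast was smaller at 5 months than at 16 months. Its upstream window was at 0.634 CPM in the 5-month cultures and at 3.33 CPM in the 16-month cultures. Its first window was at 0.222 and 0.124 CPM. The family was chosen by the gain of that upstream window at 16 months, so nothing is read from the change. In the other 6 genes the upstream windows averaged 2.58 ± 0.179 CPM at 5 months and 3.23 ± 0.586 at 16 months (SD, n = 3). At 5 months the TBX3 upstream window lay below those of TBX2, TBX5, TBX15 and TBX18 in every library, and above those of TBX4 and TBX20. At 16 months it lay within the range of TBX2, TBX5, TBX15 and TBX18.

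Across classes of windows, T-box gene starts had 1.79 ± 0.321 CPM per window, gene bodies 0.995 ± 0.0957 and flanks 0.563 ± 0.116 (SD, n = 6). Starts were above bodies by 0.799 CPM and above flanks by 1.23 CPM, and bodies above flanks by 0.432 CPM, each in 6 of 6 libraries. T-box starts were also above all other gene starts, at 1.12 ± 0.0757 CPM, by 0.675 CPM in 6 of 6 libraries. T-box bodies were below other gene bodies, at 1.15 ± 0.129 CPM, by 0.153 CPM in 6 of 6 libraries. Each of these 5 differences had an exact two-sided sign-flip p of 0.0312, and 0.0312 after adjustment over the 5. This is the smallest p that 6 libraries allow. It measures whether the libraries agree on the same windows, and not the spread over windows or genes. The 6 libraries come from 3 animals, over which the smallest p is 0.25. The starts include the TBX3 upstream window that led to the choice of the family, and the flanks include the downstream one. Without these 2 windows starts were above bodies by 0.785 CPM, above flanks by 1.22 CPM and above other starts by 0.660 CPM. Bodies were then above flanks by 0.437 CPM. The adjusted p of the exact sign-flip test stayed at 0.0312 for each. As a median over windows in place of the mean, the differences were smaller, at 0.164 CPM for starts minus bodies (adjusted p = 0.281 by the exact sign-flip test), 0.300 for starts minus flanks, 0.137 for bodies minus flanks and 0.271 for starts minus other starts, and bodies minus other bodies turned to 0.123. With the first window alone as the start, T-box starts had lower values than bodies (difference -0.180 CPM, adjusted p = 0.0625) and than other starts (-0.481 CPM, adjusted p = 0.0521 by the exact sign-flip test). The difference of the bodies from other gene bodies turned to 0.188 CPM once the 1% of windows with the most counts, none of them a T-box window, was left out.

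**Figure D5:**
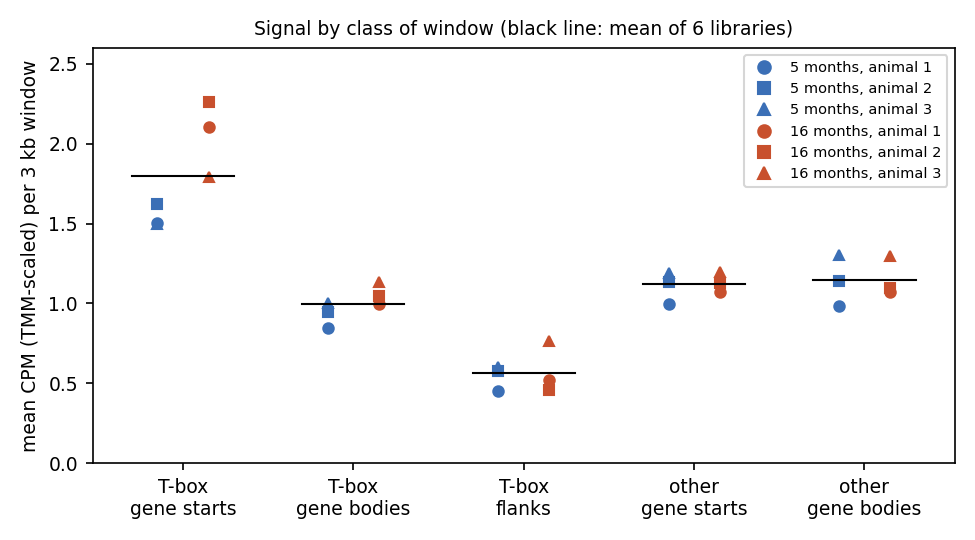
Mean CPM per 3 kb window in each library for T-box gene starts, bodies and flanks and for the starts and bodies of all other labelled genes, with black lines for the mean of 6 libraries. T-box starts lie between 1.49 and 2.26 CPM, above T-box bodies (0.846 to 1.13) and above other gene starts (0.997 to 1.20) in every library.

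At 5 months the starts had 1.54 ± 0.0727 CPM and at 16 months 2.05 ± 0.239 (SD, n = 3). Without the TBX3 upstream window these were 1.61 ± 0.0818 and 1.95 ± 0.287, and the libraries of the ages then overlapped. Within the genes, the 42 labelled windows with a coding entry had 1.68 ± 0.143 CPM and the 53 without one 0.433 ± 0.144 (SD, n = 6), a ratio of 3.87. In all other labelled genes the ratio was 2.11, at 1.81 ± 0.0934 against 0.855 ± 0.179 CPM. The coding windows were higher in 6 of 6 libraries in both sets. These means pool genes of different level, so the ratios also hold differences between genes. All 4 TBX2 windows have a coding entry (4.13 CPM), and 27 of the 53 windows without one are TBX15 windows (0.266 CPM). The median T-box window had 0.543 CPM with a coding entry and 0.267 CPM without. In the other genes the medians were 0.392 and 0.204 CPM. Whether the T-box genes differ from other genes in this contrast was not tested. In TBX4 the windows at the end of the gene, from 11864275 to 11870274, had the most signal, at 5.45 ± 1.32 and 7.94 ± 2.37 CPM at 5 months (SD, n = 3).

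The other T-box genes were not among the members. Windows labelled T, TBX6, TBX10, TBX19, TBX21, TBX22, TBR1, EOMES or MGA numbered 95, and 12 of them in 5 genes passed the filter. Of these, 5 were higher and 7 lower at 16 months, with a median log2 difference of -0.06. Over all windows tested 0.185% were called by age and 0.105% were called lower. Of these 12 windows 1 was called, and it was lower. It was the first window of TBX21, the T helper cell factor T-bet, on chromosome 19 from 39361275 to 39364274. Its reads were 88, 76 and 85 at 5 months and 83, 33 and 28 at 16 months. This was 3.42 ± 0.798 against 1.68 ± 0.282 CPM (SD, n = 3), a log2 difference of -1.01 (SE 0.26; edgeR quasi-likelihood test, FDR 0.0658), and the call was lost in 9 of 10 other settings. Between animals 3 of the 12 windows differed, against 31.6% of all windows tested. The strongest was a window of T, the mesoderm gene brachyury, from 102675351 on chromosome 9, with 507, 633 and 2063 reads at 5 months and 830, 316 and 1334 at 16 months, high in both libraries of animal 3 (FDR 1.22e-09).

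Partners and targets of T-box factors in limb, heart and pharynx, 22 genes with 189 windows, had 32 windows tested in 16 genes. At 16 months 19 were higher and 13 lower, with a median log2 difference of 0.11. None was called by age in edgeR's quasi-likelihood test. The 3 windows whose unadjusted p was under 0.05, as was that of 7.1% of all windows, were a window of SALL4, a zinc finger gene of limb and heart, at 0.69 (SE 0.22, FDR 0.214), and 2 windows of PITX1, the hindlimb homeobox gene that acts on TBX4, at -0.99 (SE 0.47, FDR 0.661) and -0.80 (SE 0.40, FDR 0.685). CDKN1A, a cell cycle inhibitor repressed by TBX2 and TBX3, had log2 differences of 0.27 and -0.18, and CDKN2A had 0.42 in its tested window, none of them called. Between animals 4 of the 32 windows differed, again against 31.6% of all windows tested.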

How the data were processed

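MIRA-Seq libraries of 6 dermal fibroblast cultures were analysed. The authors filtered and trimmed reads, aligned them to UMD v3.1 with NextGENe v2.3.4 and deposited raw read counts per window of 3 kb. The deposited depth of coverage (highest per window, an unscaled signal) was used only to look for stacked reads. How PCR copies and multiply matching reads were handled is not stated in the sources used here. No genome or sequence of this build was used here, so window positions and gene labels were taken from the files.

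Counts were analysed with R 4.3.3, DESeq2 1.42.0, edgeR 4.0.16 and limma 3.58.1, and with Python 3.11.15, numpy 2.4.6, pandas 2.3.3, scipy 1.17.1 and matplotlib 3.10.9. All 104658 windows in which 3 or more libraries reached 1 CPM (over all counted reads, without TMM factors) were fitted with TMM factors, animal and age, and p-values were adjusted (Benjamini-Hochberg) over all of them. The quasi-likelihood test stood in for the study's likelihood-ratio test. Standard errors are the log2 difference over the root of F. Residual degrees of freedom were 2 and prior ones 178. Libraries of the same animal deviated together from their age mean (correlations 0.290, 0.544 and 0.710). In simulated windows changed by age, the fit recovered 193 of 200 at 4-fold, beside 23 false calls, and 53 of 200 at 2-fold, beside 7. In those changed between animals, it recovered 196 of 200 at 4-fold, beside 24 false calls.

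Windows named were, per gene, the first labelled one, the one with the most CPM, those called or else the one with the lowest p, and those around TBX3. Others (the windows set apart by age, TBX5, TBX4 and BCAS3 windows, flanks differing between animals) were picked after seeing their values. The members and lists were chosen with earlier results of these data known. Depth of 19.9 to 43.6 M reads limits sparse windows, and libraries vary by more than counting error. Other tests, scalings, filters, thresholds and flank widths were tried, as was leaving out each animal.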

Additional observations from a re-analysis of the deposited data

How the results depend on the processing

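The windows at TBX3 kept their direction and call in 10 of 12 settings, with log2 differences from 2.09 to 2.68 upstream and from 2.27 to 2.88 downstream over all 12. With no CPM filter, which tests 884574 windows and moves the median of all to 0.11, the number of T-box windows called by age went from 2 to 0 (FDR 0.392 and 0.315), as it did without the replicate block, with labelled windows only and without the 2 windows themselves. At 0.5 CPM it was 3. Over the whole genome calls by age ranged from 0 without the block and 2 with no filter to 1267 without animal 3, and were 14 with DESeq2, 25 with TMM factors from all windows, 96 at 0.5 CPM, 99 with library size only, 13 without animal 1 and 77 without animal 2.

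The number of T-box windows that differed between animals was 13. It was 3 with DESeq2, 29 with library size only, 1 with TMM factors from all windows, 20 at 0.5 CPM, 0 with no filter, 1 among labelled windows and 5 where a 2-fold difference was also asked for (added after seeing the data). Leaving out an animal gave 0 to 13. Over all 104658 windows tested, 33071 differed between animals in the main fit. This count was 14020 with DESeq2, 48687 with library size only and 729 with TMM factors from all windows. At 0.5 CPM it was 32937 of 179683, against 20 of 136 T-box windows, and with no filter 221 of 884574. It was 14067 where a 2-fold difference was also asked for, and 3023 to 34061 with an animal left out. The counts therefore moved with the setting over the whole genome as well. The 1 window called among other T-box genes went to 0 with DESeq2, loess normalization, TMM factors from all windows, library size only, DESeq2's size factors, no replicate block and each animal left out. The partners and the T-box genes kept a count of 0 without the replicate block. Without replicate 3, 1 window of the partners was called. No T-box gene was called by age under any of 10 settings.

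Starts minus bodies was 0.164 CPM as a median over windows (adjusted p = 0.281) and -0.180 with the first window alone. The latter gave 0.252 for starts minus flanks and -0.481 for starts minus other starts. Bodies minus other bodies turned to 0.123 as a median and 0.188 without the top 1% of windows. Leaving out an animal, which allows no p under 0.125, gave 0.727 to 0.912 for starts minus bodies, 1.14 to 1.37 for starts minus flanks, 0.409 to 0.457 for bodies minus flanks, 0.608 to 0.789 for starts minus other starts and -0.177 to -0.113 for bodies minus other bodies. The cause of these shifts was not tested. Reads may include PCR copies, so counts may not be independent molecules.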
